A study of Mus musculus with 4 samples.

Results

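*Upk1a*, *Gpx2*, *S100a16*, *Sfn*, *Rab25* and *Cacna1b* are 6 of the 31055 genes counted in single cells from the caudal region of mouse embryos. They were chosen by symbol because their levels were lower in *Grhl3*-null than in wild-type (WT) surface ectoderm, so that difference is described below and carries no test. All 6 rows were found in each count matrix. Surface ectoderm was then set beside the other epithelia of these embryos, the gut and the notochord, which the choice did not use.

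Embryos were collected at E8.5 from intercrosses of *Grhl3*+/- mice. The cells of 5 WT embryos formed 1 pool and those of 3 *Grhl3*-null embryos formed another, and 2 droplet reactions were run on each pool, giving WT replicates 1 and 2 and *Grhl3*-null replicates 1 and 2. The null allele was present in every cell of the null embryos throughout development. A p-value between genotypes therefore compares 2 pools, and the spread between replicates holds no spread between embryos.

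GRHL3 is a transcription factor of the grainyhead-like family, which controls genes of epithelial junctions and barriers. At E8.5 *Grhl3* is expressed mainly along the caudal neural plate border, and later in the whole surface ectoderm. The surface ectoderm is the single-layered epithelium that borders and later covers the closing neural tube and gives rise to the epidermis. GRHL2, a relative of GRHL3, is active in many epithelia, the gut included.

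The 6 genes encode unrelated proteins, several of them known from epithelial cells. *Upk1a* encodes a uroplakin, a tetraspanin of the plaques that cover the bladder lining. *Gpx2* encodes the glutathione peroxidase best known from the intestinal epithelium, and *S100a16* a small calcium-binding protein. *Sfn* encodes stratifin, the epithelial member of the 14-3-3 family, which acts in keratinocyte differentiation. *Rab25* encodes an epithelial GTPase of the Rab11 family, active in apical recycling of membrane. *Cacna1b* encodes the pore-forming subunit of the N-type calcium channel and is known mainly from neurons.

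The genes lie apart in the genome (mm10, GENCODE vM21): *Upk1a* at chr7:30603092-30612847, *Gpx2* at chr12:76792333-76795554, *Sfn* at chr4:133600556-133602168 and *Cacna1b* at chr2:24603887-24763152, all on the minus strand. *Rab25* at chr3:88542029-88548300 (minus strand) and *S100a16* at chr3:90537254-90543151 (plus strand) share chromosome 3. All are protein-coding genes. *Gpx2* overlaps *Fntb* on the opposite strand, and whether the counting used strand is not given in the sources used here. *Fntb* itself was at 23.7 and 23.2 CPM (the gene's UMIs per 1000000 UMIs of the class in that library, where a UMI marks 1 captured transcript) in WT and 22.3 and 23.1 CPM in *Grhl3*-null surface ectoderm.

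Promoter sequences from RefSeq (GRCm38.p6, the assembly of mm10) were found for all 6 genes, with a second start for *S100a16*. Each covers 250 bases before and 50 bases after the start that RefSeq gives. They were searched on both strands for the grainyhead-like palindrome AACCGGTT, for its looser form AACNNGTT, which includes the first, and for GCCNNNGGC, a motif of AP-2 factors. The promoters of *Sfn* and *Rab25* are printed since each held the looser grainyhead-like motif, and those of *Gpx2* and *Upk1a* since these genes differed most between the genotypes. Capitals mark the motif, and each sequence runs 5′ to 3′ on the strand of its gene.
*Sfn*, chr4:133602119-133602418, minus strand: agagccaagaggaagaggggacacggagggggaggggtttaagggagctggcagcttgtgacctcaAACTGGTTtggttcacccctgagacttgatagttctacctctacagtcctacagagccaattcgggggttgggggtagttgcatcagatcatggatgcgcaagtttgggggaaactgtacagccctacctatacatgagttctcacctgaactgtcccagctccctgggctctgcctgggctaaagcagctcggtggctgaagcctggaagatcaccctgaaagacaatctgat
*Rab25*, chr3:88548230-88548529, minus strand: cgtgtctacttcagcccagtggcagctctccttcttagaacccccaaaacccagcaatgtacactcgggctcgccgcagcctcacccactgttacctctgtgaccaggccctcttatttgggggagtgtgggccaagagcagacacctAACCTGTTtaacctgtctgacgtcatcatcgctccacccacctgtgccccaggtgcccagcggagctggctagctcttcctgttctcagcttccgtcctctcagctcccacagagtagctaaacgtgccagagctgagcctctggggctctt
*Gpx2*, chr12:76795505-76795804, minus strand: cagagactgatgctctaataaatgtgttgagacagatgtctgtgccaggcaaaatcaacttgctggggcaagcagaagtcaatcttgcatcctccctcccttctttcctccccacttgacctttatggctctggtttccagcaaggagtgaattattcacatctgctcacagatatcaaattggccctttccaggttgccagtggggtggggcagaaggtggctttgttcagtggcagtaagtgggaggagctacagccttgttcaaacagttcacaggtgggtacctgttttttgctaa
*Upk1a*, chr7:30612685-30612984, minus strand: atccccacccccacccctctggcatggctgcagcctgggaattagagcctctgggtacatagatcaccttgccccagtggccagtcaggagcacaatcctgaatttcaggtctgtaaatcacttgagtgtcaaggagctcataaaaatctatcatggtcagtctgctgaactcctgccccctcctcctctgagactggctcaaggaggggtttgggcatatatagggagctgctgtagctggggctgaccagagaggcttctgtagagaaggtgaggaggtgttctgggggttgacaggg

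The *Sfn* promoter held AACTGGTT from base -184 relative to the start, and the *Rab25* promoter held AACCTGTT from base -102. The looser motif occurs in 4.20% of all 32851 promoters of this length. None of the 6 genes' promoters held the full palindrome, which occurs in 0.146% of all promoters. The AP-2 motif was found once, as GCCCTTGGC from base 38 after the start of *Cacna1b*, against 16.6% of all promoters. The promoters of *Gpx2*, *Upk1a* and *S100a16* held none of these letters. A match describes the sequence and is not a measured binding site.

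After filtering, 5459 and 5116 WT cells and 4842 and 4781 *Grhl3*-null cells remained, with 209833527 to 226723903 UMIs a library. These were 88.2% and 89.8% of the WT and 78.4% and 77.4% of the *Grhl3*-null barcodes before filtering. Cell classes are clusters named from markers, so each name means "like" that cell type. The surface ectoderm class (984 cells: 248 and 220 WT, 258 and 258 null) had 13 of the 14 markers listed for surface ectoderm and neural plate border among its leading genes, so it holds both under the shorter name, and the gut class (1308 cells) had 12 of 15. The notochord class was small, with 64 and 75 WT cells and 44 and 55 null cells. *Sfn* was among the 10 leading genes of the surface ectoderm cluster and had been left out of its marker list. Between 7 and 16 cell barcodes were shared by any pair of libraries. *Grhl3* itself stood at 33.0 and 26.2 CPM in WT and 0.230 and 0.355 CPM in *Grhl3*-null surface ectoderm, as the genotypes in the labels state.

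The pools differed in more than *Grhl3*. A pre-somitic mesoderm class held 511 and 495 WT cells but 3 and 4 null cells, so null levels in that class are not given. *Hoxc10*, a posterior Hox gene that leads that class, was also lower in null surface ectoderm (44.1 against 10.7 CPM). Cells called male were 1259 and 1206 of the WT and 2278 and 2300 of the *Grhl3*-null libraries, and cells called female were 3488 and 3263 against 1821 and 1700. Of the WT pre-somitic mesoderm cells, 502 and 487 were called female and 1 and 1 male, so nearly all came from female embryos. The part of these differences in the results below was not tested, except where sexes are given apart.

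In WT embryos 4 of the 6 genes, *Upk1a*, *Sfn*, *Rab25* and *Cacna1b*, had their highest level in surface ectoderm and their next in gut. *Gpx2* was highest in gut and *S100a16* in endothelium, each with surface ectoderm next. Notochord, also an epithelium-like tissue, was low for all 6. Levels are compared here within a gene, between classes, and as 3′ UMI counts they are not compared between genes.

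**Figure D1:**
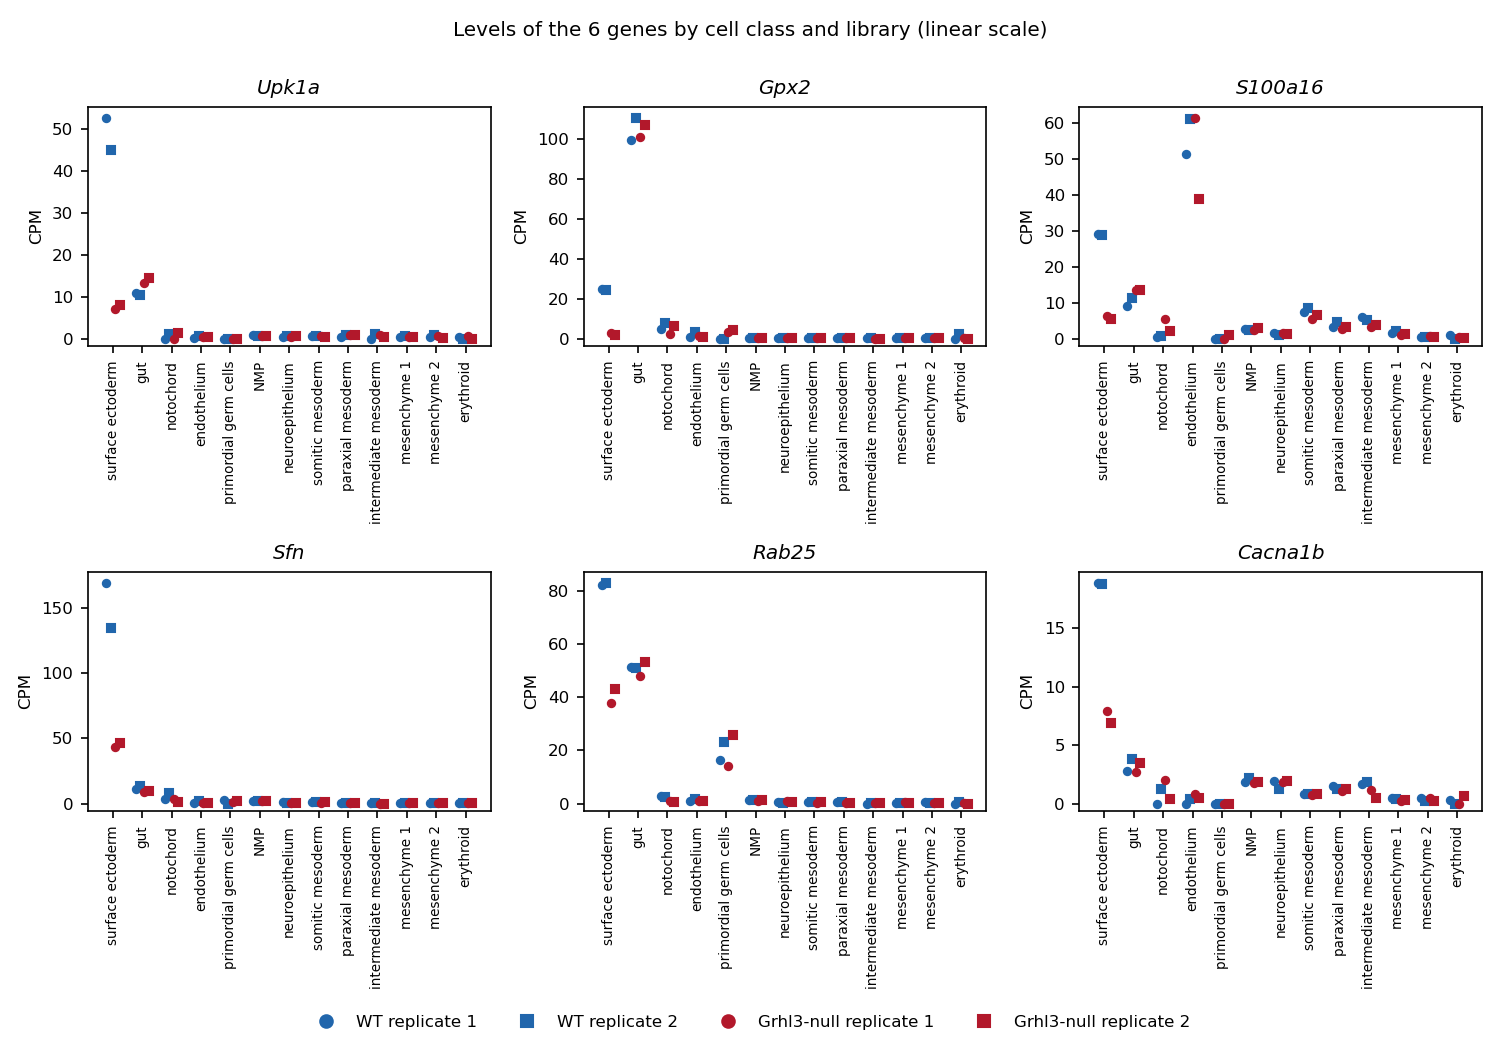
Level of each gene in CPM (vertical axis, linear scale) in 13 named cell classes (horizontal axis), 1 point per library, WT in blue and *Grhl3*-null in red; pre-somitic mesoderm is left out since it held 3 and 4 null cells. The red points lie below the blue ones in surface ectoderm in all 6 panels, while in gut they lie at a similar height.

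*Upk1a* stood at 48.8 ± 5.37 CPM (SD, n = 2 libraries) in WT surface ectoderm, 10.7 ± 0.238 CPM in gut and 0.788 ± 0.248 CPM in neuromesodermal progenitors (NMPs), the class with the next level. The NMP level and those of the classes after it overlapped. For *Sfn* the WT order was surface ectoderm (152 ± 24.4 CPM), gut (12.4 ± 2.11 CPM), notochord (5.87 ± 2.94 CPM) and NMPs (2.24 ± 0.217 CPM). *Cacna1b* had 18.8 ± 0.0326 CPM in surface ectoderm, 3.27 ± 0.722 CPM in gut and 2.05 ± 0.250 CPM in NMPs. Both genes were thus several times higher in surface ectoderm than in any other class, with no overlap of libraries.

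*Rab25* was spread more evenly over epithelia, with 82.5 ± 0.524 CPM in WT surface ectoderm and 51.1 ± 0.383 CPM in gut. Primordial germ cells, of which there were 15 and 5 in WT, came next at 19.7 ± 4.90 CPM. In the 14 and 26 null primordial germ cells *Rab25* stood at 13.96 and 25.7 CPM, and the genotypes overlapped there.

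*Gpx2* reached 105 ± 7.84 CPM in WT gut against 24.6 ± 0.324 CPM in surface ectoderm and 6.35 ± 1.83 CPM in notochord. *S100a16* stood at 56.4 ± 6.81 CPM in endothelium, 29.0 ± 0.179 CPM in surface ectoderm and 10.2 ± 1.63 CPM in gut, with pre-somitic mesoderm at 9.18 ± 0.831 CPM overlapping gut. It was the member with the widest distribution. In null endothelium *S100a16* was at 61.5 and 39.0 CPM, on both sides of the WT values of 51.5 and 61.2 CPM.

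Surface ectoderm is where the members had been selected on their genotype difference, and the following values describe that choice. *Gpx2* was at 24.8 and 24.4 CPM in the WT libraries and at 2.76 and 1.87 CPM in the *Grhl3*-null libraries, a log2 fold change of -3.43. *Upk1a* was at 52.6 and 44.98 CPM in WT and at 7.05 and 7.99 CPM in *Grhl3*-null (-2.74). *S100a16* went from 29.2 and 28.9 CPM to 6.44 and 5.597 CPM (-2.30). These are the members with the widest gap.

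*Sfn* stood at 169 and 135 CPM in WT and at 43.8 and 46.2 CPM in *Grhl3*-null surface ectoderm (log2 fold change -1.80). *Cacna1b* stood at 18.9 and 18.8 CPM against 7.89 and 6.93 CPM (-1.38), and *Rab25* at 82.1 and 82.9 CPM against 37.9 and 42.9 CPM (-1.07). For all 6 genes both null libraries lay below both WT libraries. In the fit over all 12575 genes tested in surface ectoderm, 1.43% were called lower in the null. A gene was called when its Benjamini-Hochberg adjusted p, from the quasi-likelihood test of edgeR, was under 0.05 and its change was at least 1 on the log2 scale.

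Of the 7899 genes with at least 10 CPM in WT surface ectoderm, 27 besides the members had a log2 fold change at or below that of *Rab25*, the least changed member. The 5 lowest of these were *Grhl3* (-6.67), the globin genes *Hbb-y* (-2.57) and *Hba-x* (-2.54), *Hoxc10* (-2.09) and *Esrp2* (-1.95), the last an epithelial splicing regulator. *Trim29* (-1.06), *Slc40a1* (-1.04) and *Slc44a2* (-1.03) lay just outside. *Gpx2* and *Upk1a* ranked 2 and 3 in this order, after *Grhl3*. The 15 erythroid markers summed to 109 and 77.4 CPM in WT and to 49.4 and 54.9 CPM in null surface ectoderm, and the part of blood RNA in the members' values was not tested.

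The number of surface ectoderm cells captured and kept did not fall with these levels, but fewer of them held a UMI of the members. Numbers of cells in a library do not measure the amount of a tissue in the embryo. With each cell thinned to 7500 UMIs, 27.8% and 21.8% of WT surface ectoderm cells held a *Upk1a* UMI (95% intervals by Clopper-Pearson, 22.3 to 33.8% and 16.5 to 27.9%). In the null libraries 6.20% (3.59 to 9.88%) and 5.81% (3.29 to 9.41%) did. *Gpx2* was found in 12.5% and 9.55% of WT and 1.55% and 1.16% of null cells. Intervals cover counting error only, and for a contrast that chose the genes they describe precision and are no test. Without thinning the mean shares were 64.0% and 22.9% for *Upk1a* and 23.6% and 6.98% for *Gpx2*.

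*Sfn* stayed common in the null, at 27.1% and 31.0% of thinned cells against 54.8% and 49.5% in WT. *Rab25* was found in 22.9% and 26.4% of null and 47.6% and 38.6% of WT cells after thinning. *S100a16* (14.1% against 5.81%, mean of 2 libraries) and *Cacna1b* (11.7% against 5.62%) were rarer in both genotypes. Endothelial cells, which should lack epithelial genes, held a UMI of *Upk1a*, *Gpx2*, *Sfn*, *Rab25* or *Cacna1b* in at most 1.94% of thinned cells (mean of a genotype), the highest being *Gpx2* in WT. The null share of *Gpx2* in surface ectoderm (1.36%) lay below that value but above null endothelium, where 0 of 192 and 0 of 197 thinned cells held it, which allows shares of up to 1.90% and 1.86% (Clopper-Pearson). Unthinned, null *Gpx2* shares were 6.98% in surface ectoderm and 3.07% in endothelium, with 2.31 ± 0.632 and 1.21 ± 0.259 CPM. *S100a16* has no such background there, since endothelium expresses it. Median depth before thinning ran from 35870.5 to 42311.5 UMIs over the libraries in surface ectoderm cells and from 35654.5 to 39227.5 in endothelial cells.

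**Figure D2:**
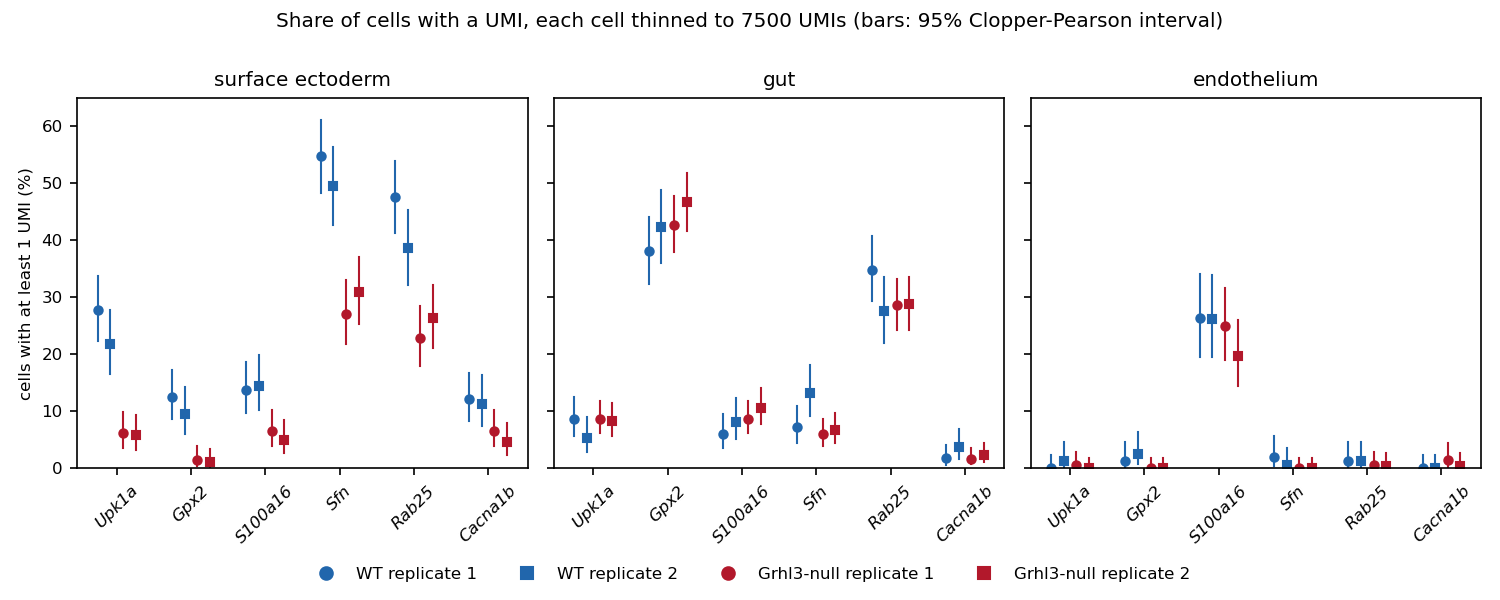
Share of cells with at least 1 UMI of each gene (vertical axis, percent) in surface ectoderm, gut and endothelium, each cell thinned to 7500 UMIs, 1 point per library with its 95% Clopper-Pearson interval, WT in blue and *Grhl3*-null in red. In surface ectoderm *Upk1a* drops from 27.8% and 21.8% in WT to 6.20% and 5.81% in the null, whereas in gut the intervals of the genotypes overlap for every gene except *Sfn*, where WT replicate 2 (13.2%) stands above *Grhl3*-null replicate 1 (5.97%).

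A surface ectoderm cell of either WT library held UMIs of a median of 4 of the 6 genes, and a null cell of 2. Cells with UMIs of 4 or more of them were 56.0% and 53.6% of WT and 18.2% and 12.4% of null cells. In gut the median was 3 in every library. After thinning the mean number in surface ectoderm was 1.69 and 1.45 in WT and 0.709 and 0.740 in null cells, and in gut it was 0.968 and 1.00 against 0.965 and 1.04.

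To follow the members within the class, surface ectoderm cells were split by a UMI of *Tfap2c*, which encodes an AP-2 factor of the neural plate border. *Tfap2c* itself was lower in null surface ectoderm (34.6 and 33.6 against 17.1 and 20.3 CPM, log2 fold change -0.91, SE 0.096, adjusted p = 3.07e-07, edgeR), below the size required for a call. Among cells with a *Tfap2c* UMI (148 and 133 WT, 105 and 118 null), *Upk1a* was 6.97 times, *Gpx2* 9.20 times and *Sfn* 3.63 times higher in WT. In cells without one, *Upk1a* was 3.88 times, *Gpx2* 14.3 times and *Sfn* 2.11 times higher in WT. The libraries of the genotypes did not overlap for these genes in either group of cells.

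*Cacna1b* behaved otherwise in this split. It was at 23.3 and 23.8 CPM in WT and at 10.4 and 6.69 CPM in null cells with a *Tfap2c* UMI, but at 7.32 and 5.59 CPM in WT and 5.59 and 7.21 CPM in null cells without one, where the genotypes overlapped. Cells with a *Tfap2c* UMI were deeper (median 61646 and 58120 against 32126 and 29539 UMIs in WT). When *Tfap2c* was read after thinning, a split added after these values were seen, *Cacna1b* was 5.33 times higher in WT cells with the UMI and 1.97 times higher in cells without it, and the genotypes did not overlap in either.

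The sex of a cell separates embryos within a pool, as male and female cells come from different embryos. In male surface ectoderm cells (50 and 55 WT, 143 and 123 null) *Upk1a* was at 43.8 and 42.5 CPM in WT and 9.56 and 11.8 CPM in null. In female cells (175 and 145 WT, 102 and 117 null) it was at 57.6 and 49.1 CPM against 3.29 and 4.38 CPM. The log2 fold change was -2.02 in male and -3.85 in female cells. The difference between the sexes was not tested, and sex cannot be told apart from the embryos that carry it.

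*Gpx2* showed a gap of the same kind, with 12.7 and 13.3 CPM in male and 30.7 and 31.2 CPM in female WT cells, and 1.52 to 2.53 CPM in null cells of either sex. For all 6 genes both null libraries lay below both WT libraries in cells of each sex. *Rab25* hardly varied, being 2.12 times higher in WT in male and 2.06 times in female cells. *Sfn* and *Cacna1b* had the opposite order to *Upk1a*, with log2 fold changes of -2.01 and -1.74 in male and -1.65 and -1.27 in female cells. *S100a16* was at -2.50 in male and -2.38 in female cells.

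**Figure D3:**
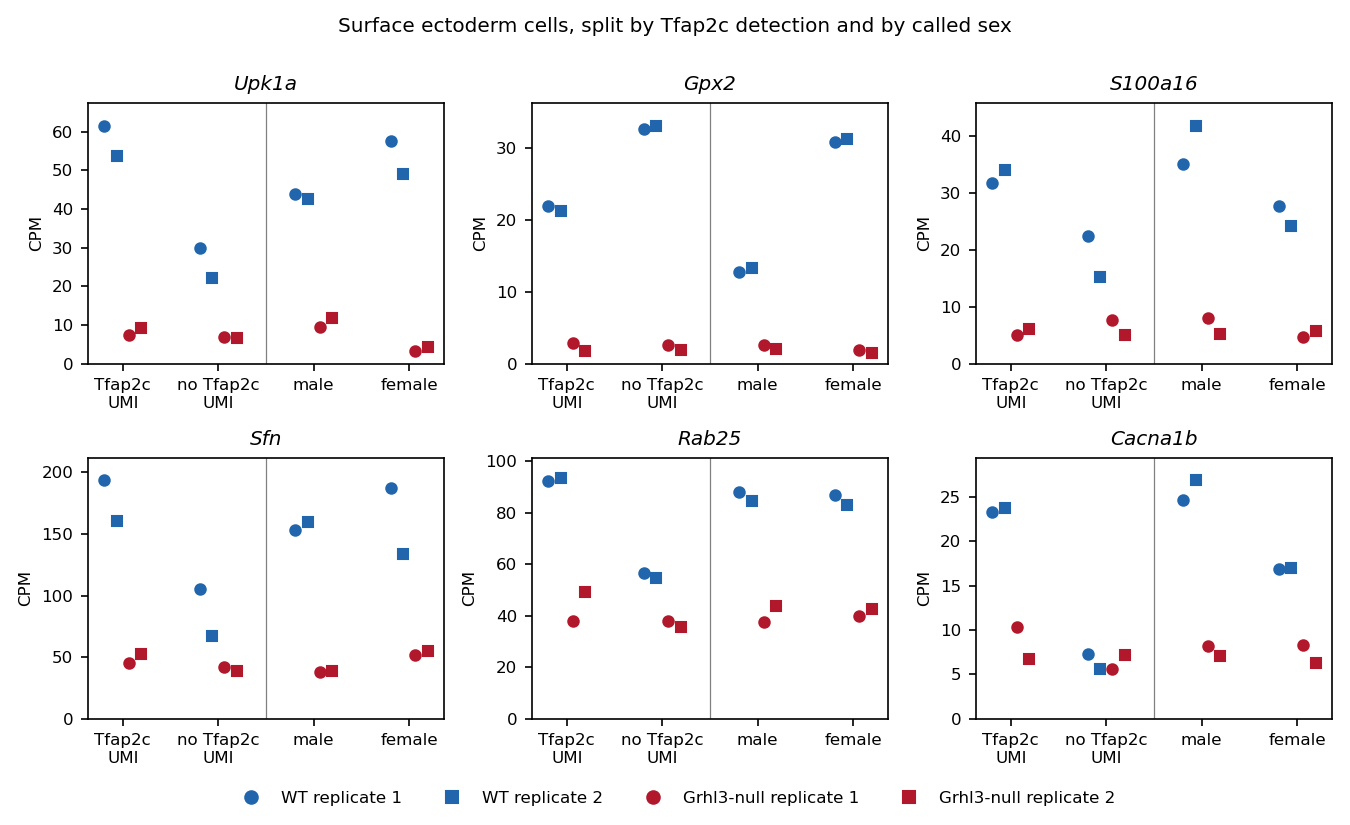
Level of each gene in CPM (vertical axis, from 0) in surface ectoderm cells with and without a *Tfap2c* UMI and in cells called male and female, 1 point per library, WT in blue and *Grhl3*-null in red. The colours separate in every group of cells except for *Cacna1b* in cells without a *Tfap2c* UMI, where WT lies at 7.32 and 5.59 CPM and null at 5.59 and 7.21 CPM.

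Within WT surface ectoderm, cells with a *Grhl3* UMI were compared with the rest as a description. After thinning, *Sfn* was found in 77.1% (62.7 to 88.0%) of 48 cells with and 49.5% (42.4 to 56.6%) of 200 cells without *Grhl3* in WT replicate 1, and in 70.6% (52.5 to 84.9%) and 45.7% (38.4 to 53.1%) in WT replicate 2. *Rab25* was found in 60.4% against 44.5% and in 67.6% against 33.3%, with intervals that overlapped in replicate 1. For *Gpx2* the order was the opposite, 6.25% against 28 of 200 cells in replicate 1 and 2.94% against 10.8%, with intervals that overlapped. For *Upk1a*, *S100a16* and *Cacna1b* the thinned intervals overlapped in each library.

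Unthinned, the shares lay further apart for *Cacna1b*, *Upk1a* and *S100a16*. Those of *Sfn* lay closer, at 95.2% against 78.2% and 96.5% against 74.3%, and *Rab25* lay further apart in WT replicate 1 only. *Gpx2* did not keep its thinned order, with 25.8% against 24.2% and 27.8% against 16.2%. *Cacna1b* was found in 68.5% against 20.2% and in 62.6% against 21.0% of cells (Pearson's r with *Grhl3* 0.54 and 0.50), and *Upk1a* in 83.1% against 47.6% and in 77.4% against 46.7% (0.49 and 0.35). The cells also differed in depth, as those with a *Grhl3* UMI had a median of 62360 and 64008 UMIs against 33121 and 31510. Where *Grhl3* was read after thinning, the original depths were still 42847 and 56550 against 40988 and 39205.5 UMIs. Across the WT surface ectoderm cells of a library, Pearson's r with *Grhl3* on log-normalised thinned counts was 0.33 and 0.26 for *Sfn*, 0.14 and 0.21 for *Rab25*, and -0.11 and -0.10 for *Gpx2*. These points share a library and are cells, not replicates.

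The gut class had almost no *Grhl3* (1.31 and 1.00 CPM in WT, 0 UMIs in both null libraries, at least 6.81-fold lower with 3 UMIs a library as the floor) but did hold *Grhl2*, at 23.7 and 21.9 CPM in WT and 23.9 and 25.4 CPM in *Grhl3*-null. In surface ectoderm *Grhl2* was at 35.2 and 38.9 CPM in WT and 35.9 and 34.9 CPM in null. *Grhl2* thus remained in both epithelia of the null embryos, and its difference in surface ectoderm did not pass the test (log2 fold change -0.10, SE 0.081, adjusted p = 0.460, edgeR).

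None of the 6 genes was called in gut, where 1.66% of the 13121 genes tested were called in either direction. At an adjusted p under 0.05 without a limit on size, 1 member was lower and 2 were higher, beside 10% and 9.66% of all genes. At an unadjusted p under 0.05 by edgeR the count was 3 of 6, beside 4217 of all 13121 genes, and DESeq2 passed 0 of 6.

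*Gpx2*, at its highest in this class, was at 99.3 and 110 CPM in WT and 101 and 107 CPM in null gut. Its log2 fold change of -0.049 had a 95% interval of -0.17 to 0.070 (adjusted p = 0.606, edgeR). *Rab25* was at 51.4 and 50.8 CPM against 48.0 and 53.1 CPM, with an interval of -0.18 to 0.070. For both genes the genotypes overlapped, and neither interval reaches a change of 1 on the log2 scale. *Cacna1b*, at 2.76 and 3.78 CPM in WT and 2.70 and 3.48 CPM in null, was measured less closely, with an interval of -0.60 to 0.38.

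*Upk1a* was higher in null gut, at 13.3 and 14.4 CPM against 10.8 and 10.5 CPM in WT (log2 fold change 0.34, SE 0.11, adjusted p = 0.0358, edgeR). *S100a16* was also higher, at 13.5 and 13.5 CPM against 9.04 and 11.3 CPM (0.38, SE 0.12, adjusted p = 0.0331, edgeR). *Sfn* was lower, at 8.60 and 9.58 CPM against 10.9 and 13.9 CPM (-0.48, SE 0.13, adjusted p = 0.0147, edgeR). The libraries did not overlap for any of these. The adjusted p stayed under 0.05 in 5, 4 and 7 of 12 alternative fits, ranging from 0.0165 to 0.372 for *Upk1a*, from 0.00867 to 0.360 for *S100a16* and from 0.00355 to 0.208 for *Sfn*. It passed 0.05 without WT replicate 1 (0.103), WT replicate 2 (0.120) or *Grhl3*-null replicate 2 (0.190) for *Upk1a*, without WT replicate 1 (0.360), *Grhl3*-null replicate 1 (0.0970) or replicate 2 (0.0697) for *S100a16*, and without WT replicate 2 (0.208) or *Grhl3*-null replicate 1 (0.0841) for *Sfn*.

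The gut of the 2 pools also differed in visceral endoderm markers. The 8 visceral endoderm markers summed to 442 and 510 CPM in WT and 1041 and 1006 CPM in null gut, with none at 0. Of the 8, 3 were called higher (*Apob*, *Ttr* and *Cubn*), beside 1.66% of all genes called in either direction. The same list summed to 1.21 and 2.42 CPM in WT and 8.81 and 8.08 CPM in null surface ectoderm. There *Afp*, *Apoa1* and *Ttr* were called higher of 3 tested, beside 0.525% of all genes. With WT sums this low, not all 3 can have passed the filter on low counts through WT libraries, which favours a higher call. The rise of the sum was not particular to epithelia. The sum went from 2.57 and 2.67 to 7.64 and 7.90 CPM in NMPs and from 2.85 and 2.07 to 10.5 and 10.9 CPM in neuroepithelium. In notochord it went from 2.11 and 3.06 to 8.62 and 9.62 CPM. The part of visceral endoderm RNA in the values of the members was not tested.

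**Figure D4:**
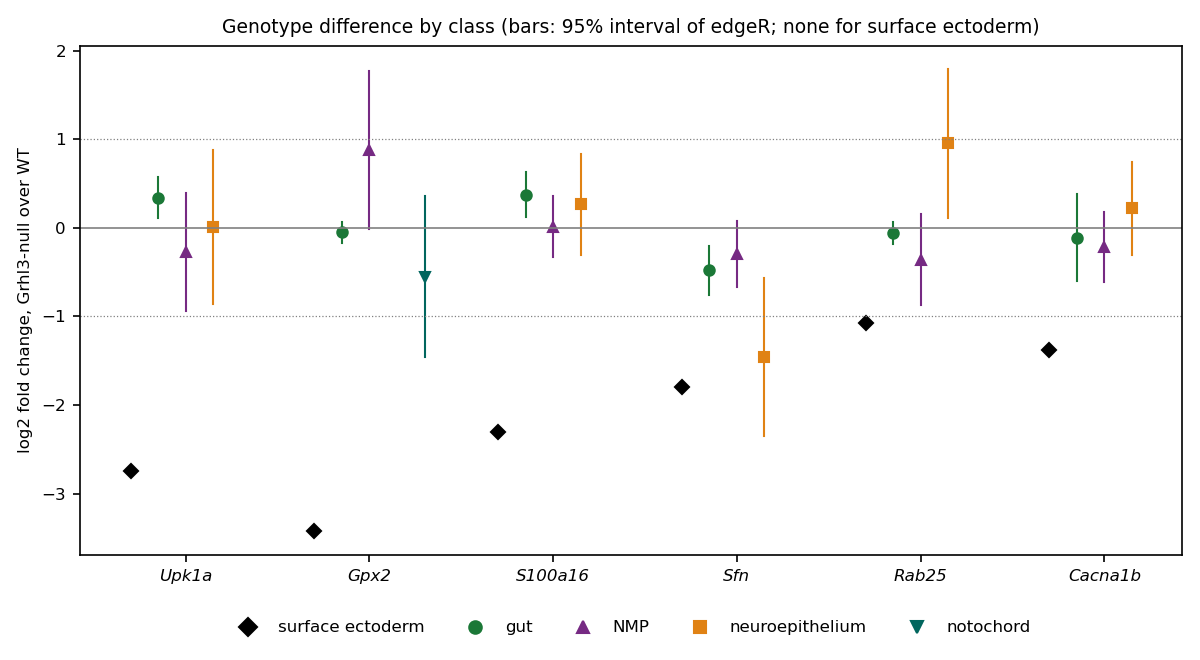
Log2 fold change of *Grhl3*-null over WT (vertical axis) for each gene by class, with the 95% interval of the edgeR fit; surface ectoderm has no interval since it chose the genes, and genes that did not pass the filter on low counts have no point. Surface ectoderm values run from -3.43 for *Gpx2* to -1.07 for *Rab25*, while in gut they run from -0.48 to 0.38.

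The order of the classes was not the same in the null. There *Upk1a* was highest in gut (13.8 ± 0.822 CPM) and came next in surface ectoderm (7.52 ± 0.668 CPM), and *Rab25* was at 50.5 ± 3.60 CPM in gut against 40.4 ± 3.57 CPM in surface ectoderm. Surface ectoderm held 72.5% and 67.5% of all *Upk1a* UMIs of the WT libraries but 20.8% and 20.2% of those of the null libraries. For *Gpx2* this share went from 17.9% and 16.6% to 1.87% and 1.07%, while gut held 78.4% and 78.5% and then 93.4% and 95.1%. *Sfn* and *Cacna1b* were highest in surface ectoderm in both genotypes, while *Gpx2* and *S100a16* had surface ectoderm in place 4 of the null order.

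Counted over all filtered cells, with no classes, *Sfn* was at 11.5 and 9.43 CPM in WT and 3.78 and 3.87 CPM in null libraries, and *Upk1a* at 4.22 and 3.74 CPM against 1.96 and 2.13 CPM. *Gpx2* was at 8.10 and 8.26 CPM in WT and at 8.498 and 9.39 CPM in null, where the null libraries lay above. These totals hold the numbers of cells of each class as well as the level in a cell.

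The notochord gave few UMIs. Only *Gpx2* passed the filter on low counts there, with 5.06 and 7.65 CPM in WT against 2.53 and 6.12 CPM (5 to 25 UMIs a library), and its log2 fold change of -0.55 had an interval of -1.46 to 0.36 (adjusted p = 0.614, edgeR). *Gpx2* was not called by edgeR, beside 1.21% of all genes tested in notochord, and DESeq2 did not call it either. Its unadjusted p was above 0.05 by edgeR, while 1648 of the 10185 genes tested had one under 0.05. The other members had 0 to 26 UMIs a library and did not pass the filter. *S100a16* had 11 UMIs in null replicate 1, from 2 cells, and 1 to 5 UMIs in the other libraries. *Sfn*, at 3.79 and 7.95 CPM in WT and 3.55 and 1.31 CPM in null, passed the filter in 5 of 12 alternatives and an adjusted p of 0.05 in 1 of them, where cells were classed by marker score (0.0103, edgeR). *Rab25* was at 2.95 and 2.45 CPM in WT and 1.01 and 0.437 CPM in null (1 to 8 UMIs a library), without overlap. Tested with no filter on low counts, its adjusted p was 0.392 and that of *S100a16* was 0.0501 (edgeR).

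Whether the genotype difference in notochord departs from that in gut was read for *Gpx2*, which passed the filter in both tissues. The difference was -0.52 on the log2 scale with an interval of -1.40 to 0.36 (interaction term in edgeR, adjusted p = 0.700), beside 0.377% of 13010 genes called, and DESeq2 did not call it. The other members entered this fit through their gut counts, and their values are not read.

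*Grhl3* was also present at a low level in WT NMPs (5.83 and 7.02 CPM) and neuroepithelium (3.93 and 3.85 CPM), the neural neighbours of the surface ectoderm. In NMPs 0 of the 6 genes were called by edgeR, beside 0.968% of all genes. At an unadjusted p under 0.05 by edgeR the count was 0 of 6, beside 4415 of all 13633 genes tested. DESeq2 also called 0 of the 6 and gave no adjusted p for 3. *S100a16* was at 2.81 and 2.39 CPM in WT and 2.48 and 2.87 CPM in null NMPs, with an interval of -0.33 to 0.36. The interval of *Sfn* was -0.67 to 0.081, and that of *Cacna1b* -0.61 to 0.18.

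In neuroepithelium 1 of the 5 members tested, *Sfn*, was called lower, beside 3.06% of all genes called in either direction. Its level was 1.22 and 0.740 CPM in WT (26 and 15 UMIs) against 0.243 and 0.478 CPM in null (6 and 12 UMIs), a log2 fold change of -1.46 (SE 0.42, adjusted p = 0.0212, edgeR). The call was lost without WT replicate 1 (adjusted p = 0.245), without *Grhl3*-null replicate 1 (0.145), by DESeq2 (0.208), without a filter on low counts (0.0596) and with the members left out of the clustering (0.0862). Over the 10 alternatives that tested it the adjusted p ranged from 0.00437 to 0.245. With clustering at resolution 0.8 and with cells classed by marker score, *Sfn* did not pass the filter on low counts. In the main classes its WT UMIs came from 12 and 11 cells. *Rab25* was at 0.468 and 0.296 CPM in WT and 0.811 and 0.717 CPM in null, with an adjusted p of 0.102 (edgeR), and DESeq2 called 0 of the 5.

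The neuroepithelium class differed in its border genes too. Of 4 regulators tested there, 3 were called higher and 1 lower by edgeR (*Grhl2*, *Grhl3*, *Tfap2a* and *Tfap2c*), beside 3.06% of all genes. Of 9 neural plate border markers 4 were called higher in the null (*Tfap2c*, *Pax7*, *Zic1* and *Dlx5*), their sum going from 268 and 304 CPM to 448 and 451 CPM. In surface ectoderm the same sum was 698 and 754 CPM in WT and 672 and 741 CPM in null, with *Pax7* called lower of 8 tested by edgeR and 0 called by DESeq2. In surface ectoderm 5 markers of committed surface ectoderm summed to 145 and 136 CPM in WT and 111 and 114 CPM in null, and 6 trophoblast markers, with *Tpbpa* and *Prl3d1* at 0, to 11.6 and 12.4 against 7.43 and 9.50 CPM, with *Elf5* called lower. A shift of border cells between the classes and a change of expression within a cell cannot be told apart from summed counts.

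Relatives of the 6 genes were examined in surface ectoderm by family. The uroplakins were the only family with a called relative. All 4 that passed the filter of the 5 listed were called lower, beside 1.43% of all genes. Their median log2 fold change was -1.90, against 0.00057 over all genes tested. *Upk1b* and *Upk2* passed the filter on low counts through their WT libraries alone, which favours a lower call. The count of 4 and the median therefore rest partly on the filter. *Upk3bl* fell from 14.9 and 14.7 to 5.06 and 5.42 CPM (-1.54, SE 0.14, adjusted p = 4.14e-08, edgeR) and *Upk3b* from 6.36 and 5.09 to 1.84 and 1.33 CPM (-1.87, SE 0.26, adjusted p = 1.48e-05).

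*Upk1b*, the nearest relative of *Upk1a*, fell from 1.29 and 1.53 to 0.383 and 0.355 CPM (-1.94, SE 0.47, adjusted p = 0.00621, edgeR). *Upk2* had 34 and 42 UMIs in WT and 0 in both null libraries, at least 12.0-fold lower when 3 UMIs a library are taken as the floor. *Upk3a* had at most 2 UMIs in any surface ectoderm library. DESeq2 called 3 of the 4. In gut neither of the 2 uroplakins tested passed even an unadjusted p of 0.05 by edgeR, nor did DESeq2 call them, while in notochord *Upk3a* was called lower, from 46.0 and 27.5 to 13.2 and 17.1 CPM (-1.23, adjusted p = 0.000276, edgeR), a call that DESeq2 did not make.

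No relative of the other members was called in surface ectoderm, by edgeR or DESeq2. Each family had 0 to 2 genes with an unadjusted p under 0.05 by edgeR, beside 3449 of all 12575 genes tested. Of 5 glutathione peroxidases tested, *Gpx1* passed an adjusted p of 0.05 (log2 fold change -0.22), and the ubiquitous *Gpx4* stood at 325 and 322 CPM in WT and 324 and 331 CPM in null. Of 6 S100 genes tested, *S100a10* (-0.73) and *S100a11* (-0.39) were lower at an adjusted p under 0.05. In gut *S100g*, a calcium-binding protein gene of absorptive epithelia, was called higher, from 21.0 and 23.6 to 83.1 and 87.3 CPM (1.90, adjusted p = 2.59e-14, edgeR). *S100g* was also called higher by edgeR in NMPs and neuroepithelium, beside 0.968% and 3.06% of all genes called there in either direction. The 6 other 14-3-3 genes ran from 0.0078 to 0.20 on the log2 scale, with *Ywhaz* the 1 that passed the adjusted p, and of 6 Rab11 genes and effectors *Rab11a* (-0.19) and *Rab11b* (-0.17) did so. Neither of the 2 calcium channel genes tested passed, *Cacna1a* being at 7.42 and 6.70 CPM in WT and 8.05 and 6.13 CPM in null.

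Of 40 other epithelial genes, 39 were tested in surface ectoderm. In all, 5 were called lower and 0 higher by edgeR, and 5 were called by DESeq2, beside 1.43% and 0.525% of all genes, and edgeR passed 23 lower and 1 higher at an adjusted p under 0.05 without a limit on size, beside 8.57% and 6.19%. The median log2 fold change was -0.38. The list was drawn up with earlier results of these data known, so these counts are no independent test. Those called included the claudins *Cldn3* (43.1 ± 1.59 against 14.8 ± 1.31 CPM) and *Cldn4* (43.9 ± 1.88 against 16.9 ± 0.833 CPM), the splicing regulator *Esrp2* and the transcription factor gene *Ovol1* (8.55 ± 0.443 against 2.69 ± 0.417 CPM).

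*Epcam*, which encodes an epithelial adhesion molecule, was at 451 and 415 CPM in WT and 354 and 340 CPM in null (-0.36, SE 0.05, adjusted p = 2.02e-05, edgeR), and *Cdh1*, which encodes E-cadherin, at 80.5 and 83.01 against 60.3 and 54.9 CPM (-0.54). *Krt19* was the gene that rose, from 78.9 to 122 CPM (0.58, adjusted p = 5.42e-08, edgeR). In gut 0 of the 40 were called by edgeR or DESeq2, beside 1.66% of all genes called by edgeR. At an unadjusted p under 0.05 by edgeR there were 18, beside 4217 of all 13121 genes tested. At an adjusted p under 0.05 by edgeR, 1 was lower and 14 were higher, beside 10% and 9.66% of all genes. The median was 0.12 beside 0.0018 over all genes. In NMPs 2 were called higher and 2 lower of 33 tested (*Cdh1*, *Cldn7*, *Krt19* and *Bspry*), beside 0.968% of all genes. In neuroepithelium 4 were called higher and 1 lower of 27 (*Cdh3*, *Cldn6*, *Cldn7*, *Krt8* and *Esrp1*), beside 3.06%. In notochord 0 of 23 were called, beside 1.21%. DESeq2 called 3, 2 and 0 genes of the list in these classes.

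Levels over 56 profiles, those of 14 named classes in the 4 libraries (null pre-somitic mesoderm included), were used on the scale log2(CPM + 1) to find the genes with the most similar distribution among 12350. For *Rab25* these were *Cldn7* (Pearson's r 0.97), *Ap1m2* (0.96) and *Tjp3* (0.95), and for *Upk1a* *Trim29* (0.91), *Tmem54* (0.91) and *Il17re* (0.90). *Sfn* was followed by *Ppl* (0.92), *Gm16136* (0.92) and *Ntf5* (0.92), and *Gpx2* by *Ildr1* (0.92), *Hsbp1l1* (0.91) and *Tmem184a* (0.90).

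The genes nearest to *Cacna1b* included *Tmem54* (0.86) and *Thbs1* (0.84). *S100a16* had the loosest neighbours, *Sh3bgrl3* (0.81), *Hgsnat* (0.80) and *Igfbp4* (0.78). Among the members the highest values were for *Sfn* with *Rab25* and with *Cacna1b* (0.83 each), and the lowest for *S100a16* with *Rab25* (0.23). The profiles share libraries and the same cells shaped the classes, so these are descriptions.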

How the data were processed

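Gene counts of UMIs per cell barcode were deposited by the authors for 4 libraries, made with Cell Ranger on mm10. Whether the counting used strand is not given in the sources used here. Barcodes below 3000 genes or 7500 UMIs, or above 7% mitochondrial UMIs, were dropped, and the rest were clustered with Seurat 5.3.0 (SCTransform, 3000 variable features, 30 components, 20 neighbours, resolution 0.4), and named from marker lists. *Sfn* was taken out of the surface ectoderm list, and 5 of the 6 genes (not *Cacna1b*) were variable features. Scrublet's automatic threshold marked at most 0.0627% of cells, so doublets stayed in, with an alternative that leaves out the top 5% of scores. UMIs were summed per class and library and tested with edgeR 4.0.16 (TMM, filterByExpr, quasi-likelihood test, Benjamini-Hochberg adjustment over all genes tested), with DESeq2 1.42.0 as an alternative. The script was tested on simulated data. Sex was called from sex-linked transcripts. Intervals of shares cover counting error only.

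The members and the lists (regulators, families, 40 other epithelial genes, markers) were chosen with earlier results of these data known. Named are the members, regulators, called or nearest relatives, the called epithelial genes, the 3 genes most alike in profile and the 5 lowest other genes in the surface ectoderm contrast. Other genes named, such as *Epcam*, *Cdh1*, *Krt19*, *Gpx4*, *S100a10* and the called markers, were chosen after their values were seen, as was the *Tfap2c* split after thinning. Of the epithelial genes, 1 is not reported here by name.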

Additional observations from a re-analysis of the deposited data

Results flagged for a closer look

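*Upk1a* lay below WT in both *Grhl3*-null libraries in surface ectoderm (log2 fold change -2.74) and above WT in both in gut (0.34). *S100a16* did the same, with -2.30 in surface ectoderm and 0.38 in gut. All libraries moved one way in one epithelium and the other way in the other. The difference between the epithelia was not tested, because the surface ectoderm values had been used to choose the genes.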

How the results depend on the processing

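The log2 fold change of each member in surface ectoderm was negative in all 14 alternatives, from -3.85 to -2.02 for *Upk1a* and -4.21 to -2.48 for *Gpx2* (extremes in cells of 1 sex), -2.50 to -2.15 for *S100a16*, -2.01 to -1.63 for *Sfn*, -1.74 to -1.27 for *Cacna1b* and -1.16 to -0.99 for *Rab25*. The members were chosen on these same cells, so the sign was set in advance and is no test. Counts of genes called depended on the tool: DESeq2 called 104 in surface ectoderm against 246, 89 in gut against 218, 31 in notochord against 123, 44 in NMPs against 132 and 240 in neuroepithelium against 399. Without a filter on low counts gut gave 114. Without doublets notochord gave 62. Neuroepithelium gave 70 with clustering at resolution 0.8 and 158 with cells classed by marker score. The difference of the genotype effect between gut and notochord had 49 calls, 30 without doublets, 76 at a mitochondrial limit of 5% and 91 by marker score, and from 15 (without *Grhl3*-null replicate 1) to 99 (without WT replicate 2) with 1 library left out. The cause of these shifts was not tested. Leaving out 1 library gave 179 to 221 calls in surface ectoderm, 169 to 203 in gut, 82 to 148 in notochord, 105 to 150 in NMPs and 355 to 397 in neuroepithelium.

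With the replicate number as a block the counts were 266, 227, 124, 158 and 390, and 50 for the interaction. The deviations of libraries with the same number correlated at 0.013 to 0.086 between genotypes, and no source pairs the reactions.

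Each genotype is 1 pool of embryos, so no test here holds the spread between embryos. Levels of a few UMIs, as in notochord, limit what can be seen.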
